A study of Mus musculus with 27 samples.

Results

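Gene expression was compared in 6 mouse libraries of untreated colon (NC) and 6 of tumor-bearing colon after FOLFOX, a probiotic complex and loperamide (CAC_FPL). These are 12 of the 27 libraries of the study. Of 39971 listed genes, 15080 were tested, those whose FPKM reached 1 in 5 or more of the 27 libraries. All mice were wild-type BALB/c, and 1 batch was labelled. NC mice received normal saline into the peritoneum and by gavage and gave colon tissue. CAC_FPL mice received AOM/DSS, FOLFOX into the peritoneum, and probiotics with loperamide by gavage, and gave a tumor-bearing segment of colon 1 week after chemotherapy began. AOM/DSS is a carcinogen followed by a chemical irritant, used to model colitis-associated cancer. The comparison therefore joins tissue source, AOM/DSS, chemotherapy, probiotic and loperamide, and their parts cannot be told apart in it. The other groups were CAC (AOM/DSS alone), CAC_F (with FOLFOX) and CAC_FP (with FOLFOX and the probiotic), with 5 libraries each. The labels number the libraries without saying that each is a separate animal, so p-values measure a spread between libraries, which may be technical in part. That spread was pooled within groups over all 27 libraries, not taken from these 12 alone.

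The colon is lined by a sheet of cells renewed from crypts. Absorptive colonocytes take up salt and water, goblet cells secrete mucus, and rarer tuft and enteroendocrine cells sense the lumen and release mediators and hormones. FOLFOX combines fluorouracil with folinic acid, which blocks the synthesis of thymidylate, and oxaliplatin, which links DNA bases, so dividing cells are its main target. Loperamide acts on opioid receptors of the gut wall, slows transit and is given against diarrhoea.

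Total counts were 60327257 to 79709845 per library in NC and 67336922 to 76966764 in CAC_FPL, and the tested genes held 99.2% to 99.4% of them. The epithelial marker Epcam was at 1143 to 1460 CPM (counts scaled to library size, with TMM factors) in NC and 1017 to 1303 CPM in CAC_FPL, so epithelium was present in every library. CAC_FPL was the more uneven group: in 68.1% of genes the SD of log2 CPM was larger there than in NC. On the first principal component NC lay at -46.1 to -36.0, CAC_FPL replicates 1 to 3 at -13.2, -22.1 and -16.6, and replicates 4 to 6 at 29.9, 18.6 and 37.3. Summed haemoglobin transcripts were 24.2 to 51.6 CPM in NC. They were 174, 57.6 and 32.0 CPM in CAC_FPL replicates 1 to 3 and 0, 0.535 and 3.49 CPM in replicates 4 to 6, against at most 0.328 CPM in CAC_F and CAC_FP. CAC_FPL replicate 3 also stood apart on the second component, at -57.5, and in Hox genes of the hindmost gut: Hoxb13 was at 289 CPM there and at 0.304 CPM or less in the other CAC_FPL libraries. This was not particular to CAC_FPL: CAC replicate 2 lay at -42.7 with Hoxb13 at 96.9 CPM. NC replicate 1 had Hoxb13 at 6.03 CPM. What sets such libraries apart was not tested, and list counts without CAC_FPL replicate 3 are given beside each list that it moves.

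Of the 15080 genes, 1068 (7.08%) passed an adjusted p of 0.05 in edgeR's quasi-likelihood test with Benjamini-Hochberg adjustment. In CAC_FPL 664 were higher (4.4%) and 404 lower (2.68%). A gene list with only 1 called member does not stand out from these shares. At least 2-fold changes were found in 309 of the higher (2.05%) and 177 of the lower genes (1.17%). The 6 and 6 libraries did not overlap in 546 genes (3.62%), 251 higher (1.66%) and 295 lower (1.96%). The share of higher calls was 62.2% here, 50.6% with quantile normalization in voom, 52.0% with voom's library weights, 78.7% with log2(FPKM + 1) and 81.7% with log2(FPKM + 0.1). Single libraries decided the count: without replicate 3 of CAC_FPL 1899 genes were called, and without replicates 4, 5 or 6, each left out alone, 494, 572 and 632. Without NC replicates 1, 3 or 4, each left out alone, 652, 628 and 621 were called.

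**Figure D1:**
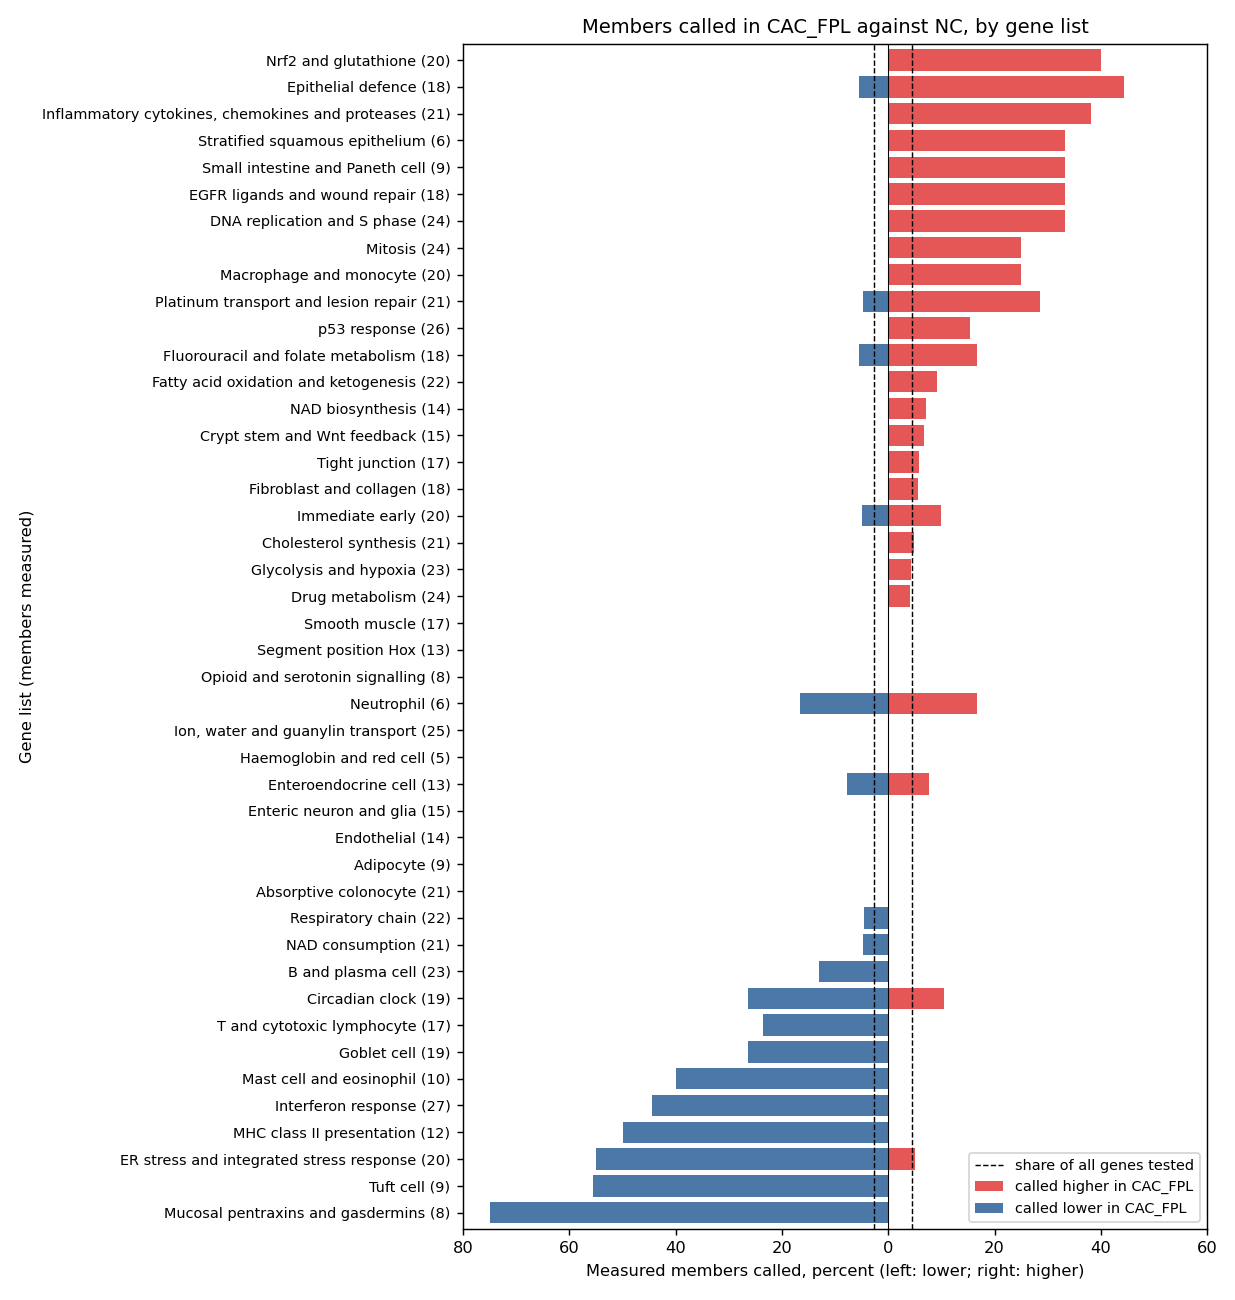
Share of the measured members of each gene list called in CAC_FPL against NC, in percent (right, red: higher; left, blue: lower; dashed lines: the same share over all 15080 genes). Pentraxins with gasdermins, tuft cell, ER stress, MHC class II and interferon lists hold the highest shares of lower genes, and epithelial defence, glutathione and inflammatory lists the highest shares of higher ones.

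Pla2g4c, Itln1 and Pnliprp2 were among the genes with the largest falls. Pla2g4c, a cytosolic phospholipase A2, lay at 797, 781, 132, 1397, 613 and 2474 CPM in NC replicates 1 to 6 and 4.6, 35.8, 0.929, 1.25, 1.6 and 3.37 CPM in CAC_FPL replicates 1 to 6. Every CAC_FPL library was below every NC library, a log2 difference of -7.03 ± 1.1987 (SE, adjusted p = 0.00129). In bulk tissue fewer cells of a type and less RNA per cell cannot be told apart. Pla2g4c lies on chromosome 7 from 13058580 to 13094597, plus strand, by the coordinates in the table, which names no genome build. Itln1, intelectin 1, a lectin that binds microbial sugars, was at 5132, 5325, 4348, 5164, 4488 and 4921 CPM in NC and 8.93, 351, 8.29, 0.31, 0.441 and 0.318 CPM in CAC_FPL. Replicate 2 was the highest of CAC_FPL, and the change of -6.31 ± 1.71 (SE, adjusted p = 0.0272) became -10.39 without it. The Itln1 call was lost without CAC_FPL replicates 4 or 5, each left out alone (adjusted p = 0.0524 to 0.055). Pnliprp2, a lipase related to pancreatic lipase, was at 157 to 1308 CPM in NC (median 536) and 0.674 to 40.6 CPM in CAC_FPL (median 12.1), a change of -5.54 ± 0.98 (SE, adjusted p = 0.00187).

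Among 19 goblet cell genes 5 fell (7 without CAC_FPL replicate 3), none rose, and the median log2 fold change was -0.60, against -0.0033 over all genes. Clca1, a secreted protease that processes mucus, was at 21290.0, 14843, 10627, 39568, 17029 and 27892 CPM in NC replicates 1 to 6 and 429.8, 2547, 1440.4, 545, 842 and 288 CPM in CAC_FPL replicates 1 to 6. No library of 1 group reached the other, and it changed by -4.43 ± 0.58 (SE, adjusted p = 0.000232). Retnlb, a resistin-like protein that acts on bacteria, changed by -4.37 ± 0.72 (SE, adjusted p = 0.00095), from 1069 to 3644 CPM in NC and 14.2 to 407 CPM in CAC_FPL. Ang4, an antimicrobial ribonuclease, changed by -4.72 ± 1.13 (SE, adjusted p = 0.0142), and it was at 0.599 CPM in replicate 3 and 481 CPM in replicate 2 of CAC_FPL. Spink4, a protease inhibitor, at -1.46 ± 0.42 (SE, adjusted p = 0.0365), lost its call without NC replicates 1, 2, 4 or 6 or CAC_FPL replicates 1, 4, 5 or 6, each left out alone (adjusted p = 0.0594 to 0.091). Tpsg1, a tryptase, at -1.48 ± 0.44 (SE, adjusted p = 0.0404), lost it without NC replicates 1, 2, 3, 4, 5 or 6 or CAC_FPL replicates 1, 4, 5 or 6, each left out alone (adjusted p = 0.0512 to 0.0816), and it overlaps Cacna1h on the other strand. Muc2, the main gel-forming mucin, was at 9605 to 30906 CPM in NC and 4071 to 20878 CPM in CAC_FPL, with overlapping groups and -0.55 ± 0.50 (SE, adjusted p = 0.514).

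Mucosal pentraxins and gasdermins had the highest share of lower genes, 6 of 8, with a median log2 fold change of -3.53. Gasdermins form membrane pores, and the Gsdmc copies are near-identical, so reads may have been shared between them. Gsdmc4 was at 778, 1513, 308, 1548, 592 and 1833 CPM in NC replicates 1 to 6 and 40, 304, 19.6, 4.53, 2.47 and 4.86 CPM in CAC_FPL replicates 1 to 6. The groups were separate, with -4.13 ± 0.86 (SE, adjusted p = 0.00602), and the fold change was -6.26 without CAC_FPL replicate 2. Gsdmc3 and Gsdmc2 changed by -3.47 ± 0.74 (SE, adjusted p = 0.00738) and -3.12 ± 0.67 (SE, adjusted p = 0.00741). The mucosal pentraxin Mptx1, a secreted pattern-recognition protein with a close copy Mptx2, was at 81.8, 18.1, 33.1, 568, 24.7 and 19.5 CPM in NC and 8.12, 15, 15.3, 1.04, 1.63 and 0.152 CPM in CAC_FPL. NC replicate 4 was far above the others. The change of -4.18 ± 0.97 (SE, adjusted p = 0.012) became -2.37 without that library and the call was lost (adjusted p = 0.0779). Mptx2 changed by -4.20 ± 0.98 (SE, adjusted p = 0.0124) and by -2.23 without NC replicate 4 (adjusted p = 0.0846).

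**Figure D2:**
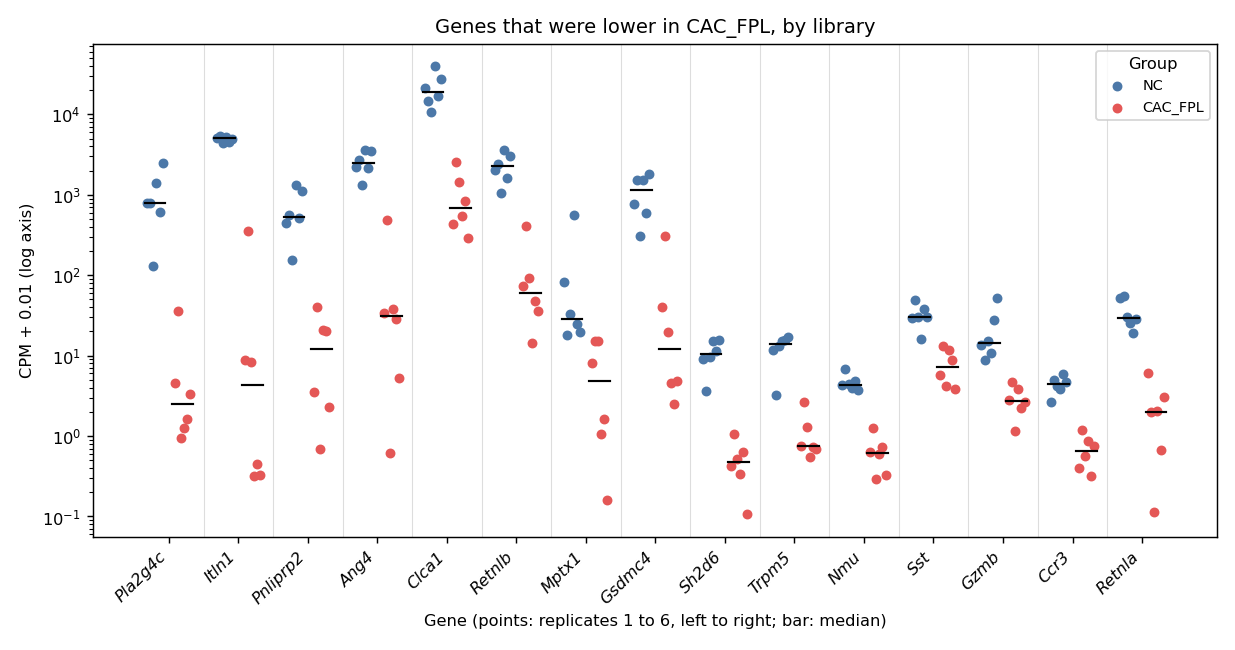
CPM + 0.01 on a log axis in NC (blue) and CAC_FPL (red) for 15 genes called lower; points are replicates 1 to 6 from left to right, bars are medians. The groups are separate for every gene shown, and the spread in CAC_FPL is widest for Itln1, from 0.310 to 351 CPM.

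Tuft cell genes fell in 5 of 9 measured members and rose in none, with a median log2 fold change of -1.48. Sh2d6, a tuft cell adaptor protein, had the smallest adjusted p of all genes. It was at 9.11, 3.61, 9.57, 15.1, 11.5 and 15.9 CPM in NC replicates 1 to 6 and 0.41, 1.07, 0.51, 0.323, 0.628 and 0.0967 CPM in CAC_FPL replicates 1 to 6, a change of -4.41 ± 0.52 (SE, adjusted p = 0.000114). Trpm5, the cation channel of taste-like signalling, was at 3.24 to 17 CPM in NC and 0.546 to 2.67 CPM in CAC_FPL, with -3.51 ± 0.49 (SE, adjusted p = 0.000382); it overlaps Tssc4, and how counting treated strand is not known from the sources. Gnat3, the taste G protein gustducin, was at 0.427 to 2.1 CPM in NC and 0 to 0.533 CPM in CAC_FPL, with -3.28 ± 0.74 (SE, adjusted p = 0.0152). Siglecf, a lectin of eosinophils that tuft cells also carry, changed by -2.14 ± 0.34 (SE, adjusted p = 0.000775). Rgs13 and Sh2d7, outside the list and taken by the size of their change, changed by -4.05 ± 1.02 and -4.05 ± 0.84 on the log2 scale. Sh2d7 overlaps Cib2. Pou2f3, the transcription factor that specifies tuft cells, stayed below the expression filter, with 1152 counts over NC and 129 over CAC_FPL. NC replicate 2 was the lowest NC library for Trpm5, Gnat3, Rgs13 and Sh2d7, at 3.24, 0.427, 1.49 and 1.23 CPM.

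Of 13 enteroendocrine genes 1 fell and 1 rose. A positive log2 fold change was found in 10 of the 13, and the median was 0.63. Sst, which encodes the inhibitory hormone somatostatin, was at 29.5, 48.7, 30.3, 16.2, 37.8 and 30.3 CPM in NC replicates 1 to 6 and 5.69, 13.2, 4.2, 11.8, 8.72 and 3.81 CPM in CAC_FPL replicates 1 to 6. The lowest NC library was above all of CAC_FPL, with -2.02 ± 0.39 (SE, adjusted p = 0.00318). Pyy, peptide YY of the distal gut, was at 21.7, 23.8, 154, 58.6, 37.2 and 29.3 CPM in CAC_FPL and 17.1, 18, 16.9, 28.8, 18.1 and 14.8 CPM in NC. Replicate 3 was the highest, and the change of 1.51 ± 0.40 (SE, adjusted p = 0.0247) was 0.86 without it; the call was lost without NC replicates 1 or 3 or CAC_FPL replicate 3, each left out alone (adjusted p = 0.0513 to 0.0644). Nmu, which encodes the neuropeptide neuromedin U, was at 3.75 to 6.82 CPM in NC and 0.285 to 1.23 CPM in CAC_FPL and changed by -2.89 ± 0.42 (SE, adjusted p = 0.000408). Nmu, the kinases Matk and Bmx, and Fam221a lie outside the list and were taken by their adjusted p. Matk and Bmx changed by -1.56 ± 0.24 (SE, adjusted p = 0.000646) and -2.06 ± 0.33 (SE, adjusted p = 0.000802). Bmx was at 0.915, 1.11, 0.884, 1.07, 0.816 and 0.829 CPM in CAC_FPL and at 3.71, 3.35, 3.79, 4.26, 4.08 and 4.32 CPM in NC. Fam221a changed by -2.05 ± 0.30 (SE, adjusted p = 0.000475).

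The circadian clock is a loop in which BMAL1 and CLOCK drive the Per, Cry and Nr1d genes, whose products repress them. Of 19 clock genes 5 fell (6 without CAC_FPL replicate 3) and 2 rose, with a median of -0.21. Nr1d1, the nuclear receptor REV-ERB alpha that represses Bmal1, was at 136, 109, 143, 141, 112 and 111 CPM in NC replicates 1 to 6 and 21, 27.7, 37.5, 20.9, 15.6 and 13.7 CPM in CAC_FPL replicates 1 to 6. The lowest NC library was well above the highest CAC_FPL library, and the change was -2.46 ± 0.32 (SE, adjusted p = 0.000219). Ciart, a repressor of the loop, was at 15.7, 16.5, 15.4, 15.2, 11.8 and 14 CPM in NC replicates 1 to 6 and 2.73, 3.59, 4.74, 1.07, 3.57 and 1.51 CPM in CAC_FPL replicates 1 to 6, with -2.36 ± 0.36 (SE, adjusted p = 0.000608); it overlaps an antisense gene. Cry1, a repressor of BMAL1 and CLOCK, rose: it was at 25.9, 33.4, 20.9, 31.3, 25.3 and 33 CPM in NC replicates 1 to 6 and 46.4, 41.9, 38.6, 39, 41 and 41.9 CPM in CAC_FPL replicates 1 to 6, separate groups, with 0.55 ± 0.11 (SE, adjusted p = 0.00501). Among output factors Dbp, a PAR bZIP activator, changed by -2.19 ± 0.59 (SE, adjusted p = 0.0261), Hlf, of the same family, by -1.27 ± 0.34 (SE, adjusted p = 0.027) and Bhlhe41, a repressor, by -0.94 ± 0.29 (SE, adjusted p = 0.0443). Nfil3, which opposes Dbp, rose by 1.46 ± 0.43 (SE, adjusted p = 0.0391). Dbp lost its call without NC replicate 3 or CAC_FPL replicates 4, 5 or 6, each left out alone (adjusted p = 0.0518 to 0.0627), Hlf without NC replicates 1 or 3 or CAC_FPL replicates 4 or 5, each left out alone (adjusted p = 0.0561 to 0.068), Bhlhe41 without NC replicates 1, 2, 3, 4, 5 or 6 or CAC_FPL replicates 1, 2, 4, 5 or 6, each left out alone (adjusted p = 0.0503 to 0.111) and Nfil3 without NC replicates 1, 2, 3, 4 or 5 or CAC_FPL replicates 4, 5 or 6, each left out alone (adjusted p = 0.0587 to 0.124). Dbp overlaps Sphk2. Bmal1 was at 5.76 to 12.3 CPM in NC and 9.05 to 24.5 CPM in CAC_FPL, with 0.82 ± 0.28 (SE, adjusted p = 0.069). The labels do not give the hour at which each tissue was taken, and its part in these values was not tested.

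The promoters of Ciart, which fell, and Cry1, which rose, are shown because they carry the same element. The E-box CACGTG, bound by BMAL1 with CLOCK and read alike on both strands, was sought in the 250 bases before each start in RefSeq promoters of build GRCm38.p6. It was in 5 of the 15 measured clock genes with a promoter in that table, in 2 of the 5 that fell, and in 1854 of all 27025 genes (6.86%). Ciart held 3 copies and Cry1 held 1, in capitals. A match is a description and not evidence of binding. The list holds known clock genes, so an excess over all genes was built in.
Ciart (chr3:95882229-95882478, minus strand): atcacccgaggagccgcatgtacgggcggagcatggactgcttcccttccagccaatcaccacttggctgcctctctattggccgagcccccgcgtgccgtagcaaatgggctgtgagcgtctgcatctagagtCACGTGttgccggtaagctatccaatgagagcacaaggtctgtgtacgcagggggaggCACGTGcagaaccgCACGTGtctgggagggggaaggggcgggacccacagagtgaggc
Cry1 (chr10:85185055-85185304, minus strand): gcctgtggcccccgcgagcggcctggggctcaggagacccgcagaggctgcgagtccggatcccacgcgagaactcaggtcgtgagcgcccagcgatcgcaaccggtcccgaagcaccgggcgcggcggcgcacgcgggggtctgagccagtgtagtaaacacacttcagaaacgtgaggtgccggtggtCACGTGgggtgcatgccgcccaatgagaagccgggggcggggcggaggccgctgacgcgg

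Genes of the unfolded protein response and of the integrated stress response were mostly lower. These pathways raise chaperones when protein folding in the endoplasmic reticulum fails, and ATF4 targets when amino acids or redox balance are disturbed. Of 20 members 11 fell and 1 rose, and the median log2 fold change was -0.70; the counts were the same without CAC_FPL replicate 3. Dnajb9, an ER co-chaperone, was at 77.4, 83.7, 77.6, 92.6, 92.8 and 95.4 CPM in NC replicates 1 to 6 and 56, 56.4, 46.3, 56.8, 49 and 48.6 CPM in CAC_FPL replicates 1 to 6. The groups were separate and narrow, with -0.73 ± 0.10 (SE, adjusted p = 0.000408). Ddit3, the transcription factor CHOP, was at 19.8 to 31.8 CPM in NC and 12.1 to 14.6 CPM in CAC_FPL, with -0.97 ± 0.16 (SE, adjusted p = 0.000865), and overlaps Mars1. Atf4 was at 231 to 313 CPM in NC and 141 to 187 CPM in CAC_FPL, with -0.66 ± 0.12 (SE, adjusted p = 0.00196). Chac1, a glutathione-degrading ATF4 target, was at 11.4, 12.3, 6.65, 18.1, 14.6 and 16.9 CPM in NC replicates 1 to 6 and 1.54, 2.08, 1.02, 2.96, 5.58 and 3.59 CPM in CAC_FPL replicates 1 to 6, with -2.25 ± 0.48 (SE, adjusted p = 0.007). Hspa5, the main ER chaperone BiP, was at 1091 to 2182 CPM in NC and 793 to 1290.5 CPM in CAC_FPL, with -0.84 ± 0.20 (SE, adjusted p = 0.0124), and CAC_FPL replicate 6 was within the NC range. The exception was Psat1, a serine synthesis enzyme and ATF4 target, which rose by 1.16 ± 0.33 (SE, adjusted p = 0.0356) and lost its call without NC replicates 1, 2, 3 or 5 or CAC_FPL replicates 4, 5 or 6, each left out alone (adjusted p = 0.0655 to 0.103).

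The ER stress element, here CCAAT and CCACG with any 9 bases between them, on either strand, is the site through which ATF6 acts. In the same windows it was found in 3 of the 18 ER stress genes with a promoter and in 35 of all 27025 genes (0.13%), and in 2 of the 10 that fell. The list holds known ER stress genes, so an excess over all genes was built in. These few matches do not set the genes that fell apart from the rest of the list, and they are not evidence of binding. Hspa5 and Creld2, both of which fell, are shown with the element in capitals. Creld2, an ER chaperone chosen after its values and this element were seen, changed by -1.03 ± 0.24 (SE, adjusted p = 0.0136).
Hspa5 (chr2:34771840-34772089, plus strand): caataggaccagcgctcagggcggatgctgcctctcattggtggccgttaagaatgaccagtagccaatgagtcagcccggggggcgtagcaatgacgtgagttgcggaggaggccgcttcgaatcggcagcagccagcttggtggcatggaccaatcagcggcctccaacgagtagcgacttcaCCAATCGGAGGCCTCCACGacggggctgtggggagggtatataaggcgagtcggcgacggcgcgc
Creld2 (chr15:88819396-88819645, plus strand): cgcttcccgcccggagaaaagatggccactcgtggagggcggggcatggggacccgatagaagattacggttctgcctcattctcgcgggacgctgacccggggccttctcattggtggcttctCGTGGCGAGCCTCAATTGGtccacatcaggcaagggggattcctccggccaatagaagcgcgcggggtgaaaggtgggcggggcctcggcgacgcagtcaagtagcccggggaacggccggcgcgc

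MHC class II genes, which present antigen on dendritic cells, B cells, macrophages and some epithelium, fell in 6 of 12 members (8 without CAC_FPL replicate 3), with a median of -1.18. H2-Ab1, a beta chain, was at 119, 213, 169, 109.8, 251 and 249.7 CPM in NC replicates 1 to 6 and 75.4, 69.6, 101, 56.3, 58.1 and 65 CPM in CAC_FPL replicates 1 to 6. All 6 CAC_FPL libraries were below all of NC, with -1.38 ± 0.28 (SE, adjusted p = 0.00485). H2-Aa, its alpha chain, and Cd74, the invariant chain, changed by -1.47 ± 0.30 (SE, adjusted p = 0.00502) and -1.22 ± 0.27 (SE, adjusted p = 0.00923). H2-DMb1 and H2-DMa, which load peptide, changed by -1.61 ± 0.36 (SE, adjusted p = 0.00931) and -1.15 ± 0.26 (SE, adjusted p = 0.00985); H2-DMa overlaps Brd2. T and cytotoxic lymphocyte genes fell in 4 of 17, and in 5 without CAC_FPL replicate 3. Gzmb, the killing protease granzyme B, was at 13.7, 8.77, 15.2, 10.7, 27.9 and 52.6 CPM in NC replicates 1 to 6 and 2.8, 4.63, 1.15, 3.89, 2.23 and 2.62 CPM in CAC_FPL replicates 1 to 6, with separate groups and -2.89 ± 0.50 (SE, adjusted p = 0.00155). Gzma, granzyme A, changed by -2.76 ± 0.57 (SE, adjusted p = 0.00511). Cd8a and Cd8b1, the CD8 chains, changed by -1.42 ± 0.41 (SE, adjusted p = 0.0355) and -1.45 ± 0.43 (SE, adjusted p = 0.0393), and lost their calls without NC replicates 3, 5 or 6 or CAC_FPL replicates 1, 4, 5 or 6, each left out alone (adjusted p = 0.0531 to 0.0856) and without NC replicates 3, 5 or 6 or CAC_FPL replicates 1, 4, 5 or 6, each left out alone (adjusted p = 0.0562 to 0.0881), respectively.

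Of 10 mast cell and eosinophil genes 4 fell (5 without CAC_FPL replicate 3) and none rose, with a median of -2.37. Retnla, given below, lies outside this list. Ccr3, the eotaxin receptor of eosinophils, was at 2.61, 4.95, 4.15, 3.81, 5.93 and 4.74 CPM in NC replicates 1 to 6 and 0.396, 1.16, 0.555, 0.857, 0.307 and 0.732 CPM in CAC_FPL replicates 1 to 6, with separate groups and -2.70 ± 0.43 (SE, adjusted p = 0.000802). The mast cell proteases Mcpt1 and Mcpt2, near-identical copies, were spread widely in NC, Mcpt1 from 23.9 to 928 CPM. Mcpt1 changed by -4.95 ± 1.32 (SE, adjusted p = 0.0252) and lost its call without NC replicate 6 or CAC_FPL replicates 4, 5 or 6, each left out alone (adjusted p = 0.0542 to 0.0737). Mcpt2 changed by -4.39 ± 1.24 (SE, adjusted p = 0.0334) and lost it without NC replicates 4 or 6 or CAC_FPL replicates 1, 4, 5 or 6, each left out alone (adjusted p = 0.0502 to 0.102). Retnla, a resistin-like product of alternatively activated macrophages and other cells, was at 18.9 to 55.6 CPM in NC and 0.105 to 6.04 CPM in CAC_FPL, with -3.94 ± 0.92 (SE, adjusted p = 0.0124). In the B and plasma cell list 3 of 23 members fell (4 without CAC_FPL replicate 3) and none rose. The log2 fold change was positive in 9 members, and the median was -0.12. Derl3, an ER degradation factor of plasma cells, changed by -1.51 ± 0.28 (SE, adjusted p = 0.00245). Jchain and Igha, of secreted IgA, changed by -0.88 ± 0.25 (SE, adjusted p = 0.0346) and -0.90 ± 0.26 (SE, adjusted p = 0.0363). Jchain lost its call without NC replicates 2, 3, 4 or 5 or CAC_FPL replicates 1, 4, 5 or 6, each left out alone (adjusted p = 0.0513 to 0.0715), and Igha without NC replicates 2, 3, 4, 5 or 6 or CAC_FPL replicates 1, 4, 5 or 6, each left out alone (adjusted p = 0.0552 to 0.0814).

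Interferon response genes fell in 12 of 27 members and rose in none, with a median of -0.999. Mx1, an antiviral GTPase, was at 33.5, 19.1, 36.1, 78.4, 51.7 and 43 CPM in NC replicates 1 to 6 and 9.93, 19.2, 9.98, 7.56, 4.28 and 11.1 CPM in CAC_FPL replicates 1 to 6. CAC_FPL replicate 2 reached the lowest NC library, and the change was -2.08 ± 0.38 (SE, adjusted p = 0.00244). Oas1a, an RNA sensor, was at 67.1 to 217 CPM in NC and 39.3 to 66.1 CPM in CAC_FPL, with -1.17 ± 0.23 (SE, adjusted p = 0.00334), just without overlap. Rigi, the RNA helicase RIG-I, changed by -0.98 ± 0.23 (SE, adjusted p = 0.0131). Oas3 and Usp18, the latter a brake on the pathway, changed by -2.27 ± 0.55 (SE, adjusted p = 0.0159) and -2.50 ± 0.61 (SE, adjusted p = 0.016), and both calls were lost without NC replicate 4 (adjusted p = 0.0545 and 0.0542), which was the highest NC library for each. The apolipoprotein L genes Apol11b and Apol10a, taken by the size of their change, changed by -3.81 ± 1.11 (SE, adjusted p = 0.0377) and -3.54 ± 1.03 (SE, adjusted p = 0.0387). Apol11b lost its call without NC replicates 1, 3, 5 or 6 or CAC_FPL replicates 1, 4, 5 or 6, each left out alone (adjusted p = 0.0526 to 0.0824), and Apol10a without NC replicates 1, 3, 5 or 6 or CAC_FPL replicates 1, 4, 5 or 6, each left out alone (adjusted p = 0.0502 to 0.0874).

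The core of the interferon-stimulated response element, GAAA and GAAA with any 2 bases between them, on either strand, was in 12 of the 19 interferon genes with a promoter, in 5 of the 8 that fell, and in 936 of all 27025 genes (3.46%). The list holds known interferon response genes, so an excess over all genes was built in. The share among the genes that fell was close to that of the whole list. A match here too is only a description. Oas1a and Isg15 are shown with the matches in capitals. Isg15, a ubiquitin-like protein chosen after its values and this element were seen, was at 9.04 to 86.3 CPM in NC and 1.9 to 14.1 CPM in CAC_FPL, with -2.27 ± 0.59 (SE, adjusted p = 0.0221), and lost its call without NC replicate 4 or CAC_FPL replicate 5, each left out alone (adjusted p = 0.0542 to 0.0792).
Oas1a (chr5:120907526-120907775, minus strand): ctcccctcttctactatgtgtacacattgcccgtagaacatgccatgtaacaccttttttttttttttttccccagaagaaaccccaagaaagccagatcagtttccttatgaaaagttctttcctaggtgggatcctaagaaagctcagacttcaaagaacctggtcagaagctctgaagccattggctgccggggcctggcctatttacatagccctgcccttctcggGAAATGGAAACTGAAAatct
Isg15 (chr4:156200819-156201068, minus strand): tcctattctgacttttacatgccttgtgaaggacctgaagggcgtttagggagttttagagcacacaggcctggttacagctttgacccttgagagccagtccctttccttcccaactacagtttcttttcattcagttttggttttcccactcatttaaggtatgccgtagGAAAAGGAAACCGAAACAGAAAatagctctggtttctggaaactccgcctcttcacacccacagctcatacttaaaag

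On the higher side, 8 of 18 epithelial defence genes were called higher and 1 lower, the intelectin Itln1 described above. Without CAC_FPL replicate 3, 8 were higher and 2 lower. Reg3b and Reg3g, lectins that kill or bind bacteria and have similar sequences, were above every NC library in 5 of 6 CAC_FPL libraries. Reg3b was at 31, 3.38, 23.1, 16.4, 13.4 and 31.3 CPM in NC replicates 1 to 6 and 228, 1054, 6.95, 527, 3958 and 775 CPM in CAC_FPL replicates 1 to 6. Replicate 3 lay within the NC range and replicate 5 was the highest. The changes were 5.79 ± 0.92 (SE, adjusted p = 0.00073) for Reg3b and 5.13 ± 0.79 (SE, adjusted p = 0.000596) for Reg3g. Ly6a, a surface protein of regenerating epithelium, changed by 1.88 ± 0.42 (SE, adjusted p = 0.00923), and Pglyrp1, which binds bacterial cell wall, by 0.70 ± 0.15 (SE, adjusted p = 0.00699). Reg3a, a further member of the lectin family, had CPM of 0.139 or less in NC and 0 to 7.39 in CAC_FPL, with 6.10 ± 1.30 (SE, adjusted p = 0.007). Its log2 fold change was 9.80 without NC replicate 3, the only NC library with counts. Markers of small intestine moved in part in the same direction: of 9 measured, 3 rose (4 without CAC_FPL replicate 3), among them Rbp2 (2.04 ± 0.49 on the log2 scale) and Sis (3.63 ± 1.12), none fell, and the median was 2.04. The log2 fold change was positive in 7 and negative in 2, the lowest at -2.64. The summed level of these markers was 300.5, 220, 48.2, 953, 1091 and 196 CPM in CAC_FPL replicates 1 to 6, and 56.7 to 202 CPM in NC. Their part in the defence genes was not tested.

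Ly6g was at 6.43, 2.46, 1.84, 15, 0.493 and 3.89 CPM in NC replicates 1 to 6 and 21.2, 45.9, 118, 321, 592 and 89.5 CPM in CAC_FPL replicates 1 to 6. The groups were separate, with 5.30 ± 1.08 (SE, adjusted p = 0.00502). Ly6g2, a neighbouring copy, changed by 6.12 ± 0.79 (SE, adjusted p = 0.000219). Ly6g is the usual surface marker of neutrophils, while S100a8, an abundant neutrophil protein, was at 0 to 0.201 CPM in NC and 0.107 to 1.54 CPM in CAC_FPL, with 2.96 ± 1.17 (SE, adjusted p = 0.113). Of 14 neutrophil markers 6 passed the expression filter and 8 did not. The summed level of the 14, Ly6g included, was 14.5 to 34.9 CPM in NC. It was 35.9, 55.9, 141, 337, 603 and 110 CPM in CAC_FPL replicates 1 to 6, most of it Ly6g in each. What the markers other than Ly6g added was of similar size in both groups. Of the 8 below the filter, which were not tested, 6 had more counts over CAC_FPL than over NC: Ltf (496 and 80), Mmp8 (362 and 36), Trem1 (226 and 40), Elane (41 and 22), Camp (24 and 11) and Ngp (11 and 5). The other two had fewer, Cxcr2 (79 and 196) and Mpo (40 and 111). Retnlg, a resistin-like gene of neutrophils, changed by -1.95 ± 0.35 (SE, adjusted p = 0.00196), and Ly6g rose.

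Inflammatory cytokines, chemokines and proteases rose in 8 of 21 members and fell in none, with a median of 2.38, and in 11 without CAC_FPL replicate 3. Cxcl5 and Cxcl1, neutrophil chemokines, were separate between the groups. Cxcl5 was at 0.134, 0.196, 0.208, 0.386, 0.714 and 0.302 CPM in NC replicates 1 to 6 and 0.901, 2.16, 6.89, 18.5, 2.55 and 24.3 CPM in CAC_FPL replicates 1 to 6, with 4.80 ± 1.13 (SE, adjusted p = 0.0133). Cxcl1 was at 1.15, 1.66, 4.27, 36.1, 3.49 and 86.3 CPM in CAC_FPL and at most 0.662 CPM in NC, with 5.84 ± 1.49 (SE, adjusted p = 0.02). Replicates 4 and 6 were the highest for both. Ccl7, a monocyte chemokine, changed by 4.06 ± 0.97 (SE, adjusted p = 0.0142). Cxcl1 and Ccl7 lost their calls without CAC_FPL replicate 6 (adjusted p = 0.0573 and 0.0517). Csf3, the growth factor of neutrophils, was detected in 1 NC library and was at 0, 0, 0.15, 8.53, 1 and 12.7 CPM in CAC_FPL, with 7.94 ± 2.11 (SE, adjusted p = 0.0249); the call was lost without NC replicates 1, 3, 4 or 5 or CAC_FPL replicates 4 or 6, each left out alone (adjusted p = 0.0524 to 0.0647). Timp1, an inhibitor of matrix proteases that overlaps Syn1, changed by 2.55 ± 0.68 (SE, adjusted p = 0.026) and lost its call without NC replicates 3 or 5 or CAC_FPL replicates 4 or 6, each left out alone (adjusted p = 0.0564 to 0.0833). Il1b was at 1.07 to 5.62 CPM in NC and 2.43 to 15 CPM in CAC_FPL, with 1.43 ± 0.69 (SE, adjusted p = 0.195).

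Of 20 macrophage and monocyte genes 5 rose (7 without CAC_FPL replicate 3) and none fell, with a median of 0.72. Mmp12, Has1 and Sele, given below, lie outside this list. Trem2, a lipid receptor of tissue macrophages, was at 2.32, 3.24, 2.31, 2.8, 1.75 and 3.05 CPM in NC replicates 1 to 6 and 5.78, 7.53, 9.31, 8.15, 6.12 and 8.67 CPM in CAC_FPL replicates 1 to 6. All 6 CAC_FPL libraries were above NC, with 1.56 ± 0.24 (SE, adjusted p = 0.000596). Mmp12, macrophage elastase, was at 0.902, 1.07, 0.643, 0.755, 1.16 and 1.71 CPM in NC replicates 1 to 6 and 12.8, 14, 7.39, 34.4, 12.9 and 15.7 CPM in CAC_FPL replicates 1 to 6, with 3.96 ± 0.55 (SE, adjusted p = 0.000382). Gpnmb, a glycoprotein of lysosome-rich macrophages, and Cd68, a lysosomal marker, changed by 2.73 ± 0.47 (SE, adjusted p = 0.00135) and 1.13 ± 0.24 (SE, adjusted p = 0.00654). Msr1, a scavenger receptor, changed by 1.49 ± 0.33 (SE, adjusted p = 0.00866). Cd14, the co-receptor for bacterial lipopolysaccharide, rose by 1.22 ± 0.33 (SE, adjusted p = 0.0272) and lost its call without NC replicates 1, 3 or 4 or CAC_FPL replicate 6, each left out alone (adjusted p = 0.0527 to 0.058). Has1, a hyaluronan synthase, rose by 5.86 ± 1.15 (SE, adjusted p = 0.00359). Sele, E-selectin of activated endothelium, was at 0 to 0.161 CPM in NC and 0.246 to 3.38 CPM in CAC_FPL, with 4.59 ± 1.31 (SE, adjusted p = 0.0353), and lost its call without NC replicates 1, 2, 3, 4 or 5 or CAC_FPL replicates 4, 5 or 6, each left out alone (adjusted p = 0.0514 to 0.0768).

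**Figure D3:**
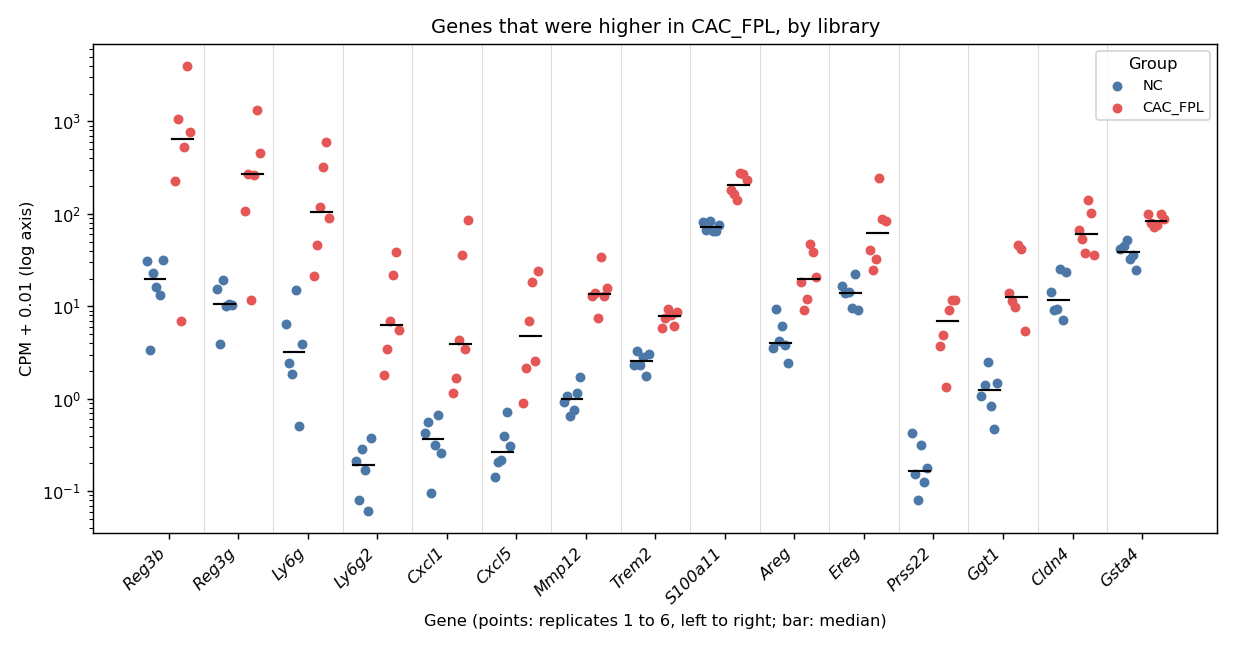
CPM + 0.01 on a log axis in NC (blue) and CAC_FPL (red) for 15 genes called higher; points are replicates 1 to 6 from left to right, bars are medians. S100a11, Trem2 and Gsta4 form tight, separate groups, whereas Cxcl1 ranges from 1.15 to 86.3 CPM in CAC_FPL and Reg3b in CAC_FPL replicate 3 lies within NC.

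Genes of wound repair and EGFR signalling rose in 6 of 18 members, and in 8 without CAC_FPL replicate 3. S100a11, Cldn4, Prss22 and Fosl1, given below, lie outside this list. Ereg and Areg are ligands of the EGF receptor. Ereg was at 16.5, 13.8, 14.2, 9.65, 22.6 and 9.24 CPM in NC replicates 1 to 6 and 40.7, 24.7, 32.7, 242, 87.2 and 84.4 CPM in CAC_FPL replicates 1 to 6, with separate groups and 2.57 ± 0.50 (SE, adjusted p = 0.00346). Areg changed by 2.30 ± 0.44 (SE, adjusted p = 0.00303). Anxa1, an annexin that limits inflammation, changed by 1.05 ± 0.24 (SE, adjusted p = 0.00985). Il33, an alarmin, changed by 2.31 ± 0.55 (SE, adjusted p = 0.0141), with CAC_FPL replicate 3 at 6.05 CPM, below all NC libraries. S100a11, a calcium-binding protein of epithelium, was at 81.2, 66.6, 84.5, 65.8, 66 and 76.7 CPM in NC replicates 1 to 6 and 181, 165, 141, 275, 271 and 233 CPM in CAC_FPL replicates 1 to 6, with 1.52 ± 0.20 (SE, adjusted p = 0.000232). Cldn4, the 1 tight junction gene of 17 that was called (2 without CAC_FPL replicate 3), was at 7.15 to 25.5 CPM in NC and 35.9 to 142 CPM in CAC_FPL, with 2.31 ± 0.42 (SE, adjusted p = 0.00196). The epithelial serine protease Prss22 was at 0.0695 to 0.418 CPM in NC and 1.33 to 11.8 CPM in CAC_FPL, with 5.12 ± 0.78 (SE, adjusted p = 0.000596). Fosl1, an AP-1 subunit, was at 0 to 0.104 CPM in NC and 0.27 to 2.51 CPM in CAC_FPL, with 4.80 ± 0.92 (SE, adjusted p = 0.00313), and overlaps Ccdc85b.

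Other genes with large increases included some with no counts in NC. Khdc1a had 0 counts over NC and 662 over CAC_FPL, at least 187-fold higher against a floor of 3 counts over the group. Spink6, a kallikrein inhibitor, had 0 and 478 counts, at least 135-fold higher. Krt6a, a wound keratin with close copies, had 0 and 416 counts, at least 118-fold higher, and it was at 0 in CAC_FPL replicate 1. These floors cover counting error only. With 0 counts in NC, these genes passed the expression filter only through the other groups, so a higher level outside NC was a condition of being tested. The same holds for Csf3, Reg3a, Fosl1, Csta1 and Krt4, whose median in NC was 0 CPM. Krt36, a further keratin, changed by 5.25 ± 1.12 (SE, adjusted p = 0.00706), the protease inhibitor Csta1 by 4.50 ± 0.98 (SE, adjusted p = 0.00806), and Myot, a sarcomere protein, by 4.97 ± 0.88 (SE, adjusted p = 0.00187). Chrdl2, a BMP antagonist, changed by 4.32 ± 0.85 (SE, adjusted p = 0.00359). Atg9b, a lipid scramblase of autophagy, was at 0.952, 1.19, 1.02, 1.46, 1.25 and 1.63 CPM in NC replicates 1 to 6 and 6.5, 5.15, 2.62, 26, 24.5 and 35.3 CPM in CAC_FPL replicates 1 to 6, with 3.74 ± 0.52 (SE, adjusted p = 0.000382); it overlaps Nos3. Ggt1, which breaks down extracellular glutathione, was at 0.467 to 2.5 CPM in NC and 5.44 to 46.4 CPM in CAC_FPL, with 4.06 ± 0.61 (SE, adjusted p = 0.000475). Syt8, of the synaptotagmin family, and Ranbp17, of the importin family, changed by 2.89 ± 0.44 (SE, adjusted p = 0.00055) and 1.76 ± 0.26 (SE, adjusted p = 0.000408).

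Genes driven by NRF2, the regulator of antioxidant enzymes, rose in 8 of 20 members (9 without CAC_FPL replicate 3) and fell in none, with a median of 0.34. Gsta4, a glutathione transferase that clears lipid aldehydes, was at 41.7, 45.1, 51.7, 32.5, 35.7 and 25 CPM in NC replicates 1 to 6 and 99.1, 80.3, 72, 76, 100.3 and 87.3 CPM in CAC_FPL replicates 1 to 6. Its groups did not overlap, with 1.15 ± 0.17 (SE, adjusted p = 0.000475). Gsta3, of the same family, was at 34.7, 15, 13.2, 7.79, 13.5 and 24.2 CPM in CAC_FPL and at most 6.96 CPM in NC, with 2.13 ± 0.40 (SE, adjusted p = 0.00263). Gpx2, the gut glutathione peroxidase, changed by 1.42 ± 0.33 (SE, adjusted p = 0.0126). Txnrd1, thioredoxin reductase, changed by 0.53 ± 0.13 (SE, adjusted p = 0.0196) and lost its call without CAC_FPL replicate 5 (adjusted p = 0.0526). Hmox1, haem oxygenase 1, changed by 1.07 ± 0.27 (SE, adjusted p = 0.0201) and lost its call without CAC_FPL replicates 4 or 6, each left out alone (adjusted p = 0.0573 to 0.0635).

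The counts of proliferation genes rose without CAC_FPL replicate 3, as did the count over all genes, from 1068 to 1899. List counts were not refitted without any other library. Of 24 S phase genes 8 rose, and 19 without replicate 3, with a median log2 fold change of 0.67. Of 24 mitosis genes 6 rose, and 21 without it, with a median of 0.72. None fell in either list. Rrm2, the regulated subunit of ribonucleotide reductase, was at 16.5, 30.5, 15.2, 26.9, 29.2 and 46.6 CPM in NC replicates 1 to 6 and 42.5, 45, 22.3, 113, 165 and 120.2 CPM in CAC_FPL replicates 1 to 6, with 1.62 ± 0.39 (SE, adjusted p = 0.0142), and only replicates 4 to 6 of CAC_FPL lay above all of NC. Pola1, of DNA polymerase alpha, changed by 0.65 ± 0.16 (SE, adjusted p = 0.0158), and the mitotic kinesin Kif23 by 0.76 ± 0.19 (SE, adjusted p = 0.0158). Cdk1, the kinase that drives mitosis, was at 33.2, 36.8, 12.8, 52.6, 68.4 and 59.8 CPM in CAC_FPL and 22.5, 29, 22.8, 22.7, 26.7 and 27.6 CPM in NC, with 0.80 ± 0.24 (SE, adjusted p = 0.0421), and lost its call without NC replicates 1, 2, 3, 4, 5 or 6 or CAC_FPL replicates 4, 5 or 6, each left out alone (adjusted p = 0.0524 to 0.12). Mki67, the usual proliferation marker, was at 123 to 199.8 CPM in NC and 103 to 273 CPM in CAC_FPL, with 0.33 ± 0.21 (SE, adjusted p = 0.322). Of 15 crypt stem and Wnt feedback genes 1 rose, Myc, by 1.09 ± 0.29 (SE, adjusted p = 0.0249); it lost its call without NC replicates 3 or 4 or CAC_FPL replicates 4, 5 or 6, each left out alone (adjusted p = 0.0541 to 0.0653). Lgr5 was below the filter, with 1264 counts over NC and 1271 over CAC_FPL.

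The p53 response list, which follows DNA damage, had 4 of 26 members higher (5 without CAC_FPL replicate 3) and none lower, with a median of 0.24. Tnfrsf10b, a death receptor, was at 9.78, 8.12, 6.53, 8.58, 9.57 and 8.4 CPM in NC replicates 1 to 6 and 13.9, 12.9, 18, 18.7, 16 and 19.7 CPM in CAC_FPL replicates 1 to 6. Every CAC_FPL library exceeded every NC library, with 0.96 ± 0.18 (SE, adjusted p = 0.00254). Eda2r, a receptor of the same superfamily, was at 3.6, 3.17, 2.04, 16.9, 14 and 12.4 CPM in CAC_FPL and 0.974 to 2.73 CPM in NC, with 2.19 ± 0.48 (SE, adjusted p = 0.00855). Bax, a pore-former of apoptosis, changed by 0.52 ± 0.15 (SE, adjusted p = 0.0403) and Phlda3, an AKT inhibitor, by 1.06 ± 0.33 (SE, adjusted p = 0.0481). Bax lost its call without NC replicates 1, 3, 4, 5 or 6 or CAC_FPL replicates 4, 5 or 6, each left out alone (adjusted p = 0.0542 to 0.102), and Phlda3 without NC replicates 1, 2, 3, 4, 5 or 6 or CAC_FPL replicates 1, 4, 5 or 6, each left out alone (adjusted p = 0.0546 to 0.0979). Cdkn1a, the p21 cell cycle inhibitor and a core p53 target, was at 92.1 to 203 CPM in NC and 75 to 171 CPM in CAC_FPL, with -0.31 ± 0.21 (SE, adjusted p = 0.354).

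Genes that handle the drugs moved in part. Of 21 platinum transport and repair genes 6 rose and 1 fell, and without CAC_FPL replicate 3, 8 rose and 0 fell. Of 18 fluorouracil and folate genes 3 rose and 1 fell, and without it 6 rose and 1 fell. Abcc4 and Abcc1, efflux pumps, had separate groups. Abcc4 was at 11.6, 12.5, 10.2, 15.9, 13.9 and 13 CPM in NC replicates 1 to 6 and 19.6, 18.1, 34.5, 32, 28.5 and 29 CPM in CAC_FPL replicates 1 to 6, with 1.07 ± 0.19 (SE, adjusted p = 0.00181), and Abcc1 changed by 0.51 ± 0.12 (SE, adjusted p = 0.0121). Fancd2, which acts in the repair of DNA crosslinks, changed by 1.12 ± 0.26 (SE, adjusted p = 0.0107). Brca1 changed by 0.98 ± 0.25 (SE, adjusted p = 0.0205) and lost its call without NC replicates 1 or 3 or CAC_FPL replicates 5 or 6, each left out alone (adjusted p = 0.0517 to 0.0608). Upp1, uridine phosphorylase, which can activate fluorouracil, was at 48.2 to 266 CPM in NC and 22.1 to 66.3 CPM in CAC_FPL, with -1.97 ± 0.49 (SE, adjusted p = 0.0183), and lost its call without CAC_FPL replicate 4 (adjusted p = 0.0528). Tyms, the target of fluorouracil, changed by 0.52 ± 0.16 (SE, adjusted p = 0.0421) and lost its call without NC replicates 1, 3, 4, 5 or 6 or CAC_FPL replicates 4, 5 or 6, each left out alone (adjusted p = 0.0543 to 0.106).

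**Figure D4:**
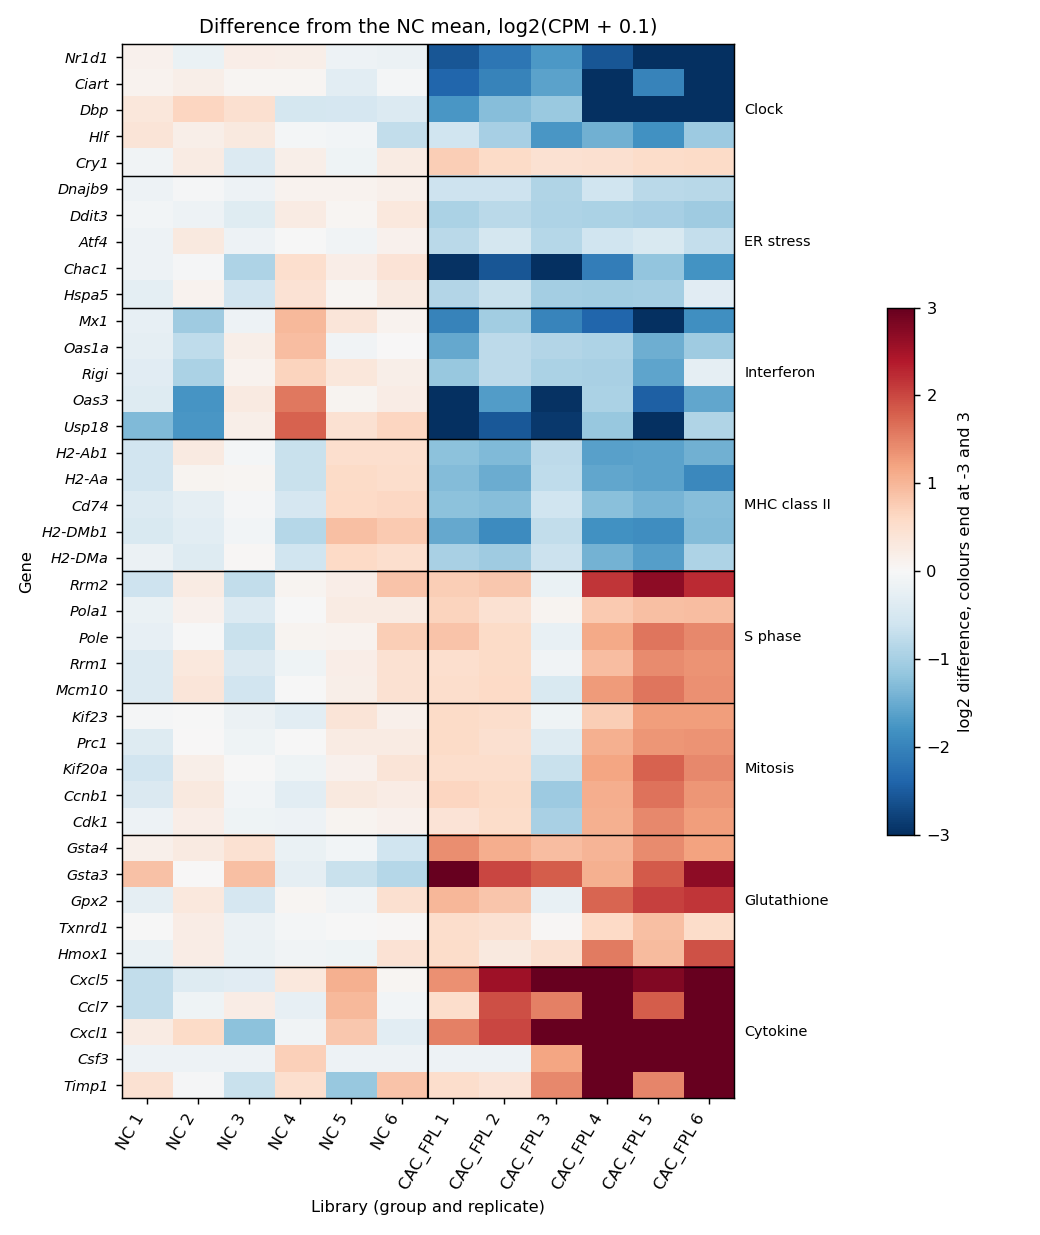
Difference of log2(CPM + 0.1) from the NC mean for 40 genes (rows, 5 per group named at the right) in 12 libraries (columns); red is higher, blue lower, colours end at -3 and 3. Nr1d1, Ciart, Dbp, Dnajb9, Ddit3, Atf4 and Chac1 are below every NC library in all 6 CAC_FPL libraries, whereas the S phase and mitosis genes of replicate 3 lie within or below the NC range.

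Other lists had few or no called members. None of 21 absorptive colonocyte, 25 ion and water transport, 8 opioid and serotonin, 13 Hox and segment, 17 smooth muscle, 15 enteric neuron and glia, 14 endothelial or 9 adipocyte genes was called. Without CAC_FPL replicate 3, 1 absorptive gene was called higher, and 1 gene each of the ion transport, opioid and serotonin, and Hox lists lower. Slc26a3, the chloride exchanger of surface colonocytes, was at 103 to 415 CPM in NC and 44.1 to 501 CPM in CAC_FPL, with -0.64 ± 0.56 (SE, adjusted p = 0.499). The opioid receptor gene Oprm1, the target of loperamide, had 19 counts over NC and 21 over CAC_FPL. All 17 smooth muscle genes had a negative log2 fold change, median -0.65, with summed levels of 4843 to 11315 CPM in NC and 2661 to 7708 CPM in CAC_FPL. All 9 adipocyte genes had a positive one, median 1.68, with sums of 52.1 to 1018 and 37.6 to 3079 CPM. The part of muscle and fat in other results was not tested beyond a fit with the muscle level as covariate, in which 1240 genes were called.

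In the remaining lists few members were called. Over all genes tested 4.4% were higher and 2.68% lower, and most of the counts that follow are near those shares. Of 18 fibroblast genes 1 rose (Pdgfra, 0.91 ± 0.27 on the log2 scale), of 6 measured squamous genes 2 (Krt4, 4.39 ± 0.94, and Krt6a), of 3 skeletal muscle genes 1 (Tnni2, 2.25 ± 0.51), and of 23 glycolysis and hypoxia genes 1 (Car9, 0.52 ± 0.15, which overlaps Gm12454). Of 22 fatty acid oxidation genes 2 rose (Angptl4, 4.41 ± 0.94, and Plin2, 0.56 ± 0.16), and of 24 drug metabolism genes 1 (Cyp1b1, 3.90 ± 1.09). Of 22 respiratory chain genes 1 fell (Cox5b, -0.41 ± 0.13), and all 22 had a negative log2 fold change, median -0.23. Of 20 immediate early genes 2 rose and 1 fell. Without CAC_FPL replicate 3 the fibroblast and the glycolysis lists each had 2 higher genes, fatty acid oxidation 3, and the immediate early list 3 higher and 2 lower. Sis, Pdgfra, Car9, Plin2, Cyp1b1 and Cox5b each lost the call when single libraries were left out. No gene of the red cell list (5 measured) or the pancreas list (1 measured) was called.

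The series title names NAD metabolism. Of 14 measured NAD biosynthesis genes 1 rose, and of 21 NAD-consuming genes 1 fell. Over all genes tested 4.4% were higher and 2.68% lower, so neither list stood out from all genes. Without CAC_FPL replicate 3, 2 rose in the first list and 2 fell in the second. Nmnat3, a mitochondrial NAD synthase, changed by 0.89 ± 0.24 (SE, adjusted p = 0.0255), and Sirt2, a deacetylase, by -0.25 ± 0.08 (SE, adjusted p = 0.0462). Nmnat3 lost its call without NC replicates 4 or 5 or CAC_FPL replicates 4, 5 or 6, each left out alone (adjusted p = 0.0534 to 0.0597), and Sirt2 without NC replicates 1, 3, 4, 5 or 6 or CAC_FPL replicates 2, 4, 5 or 6, each left out alone (adjusted p = 0.0583 to 0.14). Nampt, the rate-limiting enzyme of salvage from nicotinamide, was at 96.3 to 140.4 CPM in NC and 83.5 to 149 CPM in CAC_FPL, with -0.28 ± 0.15 (SE, adjusted p = 0.23). Naprt, which uses nicotinic acid and overlaps Eef1d, had -0.20 ± 0.20 (SE, adjusted p = 0.563). Nmnat1 had -0.04 ± 0.12 (SE, adjusted p = 0.876) and Nmrk1, nicotinamide riboside kinase, 0.25 ± 0.17 (SE, adjusted p = 0.389). Cd38, an NAD-degrading enzyme, was at 106 to 171 CPM in NC and 110.3 to 384 CPM in CAC_FPL, with 0.71 ± 0.27 (SE, adjusted p = 0.0992), and Nnmt, which methylates nicotinamide, had 1.36 ± 0.74 (SE, adjusted p = 0.25).

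The departures of the other groups from the same NC libraries can be set beside those of CAC_FPL. With the same test 1 gene was called in CAC (0.00663%), 6976 in CAC_F (46.3%) and 4002 in CAC_FP (26.5%), which share the NC libraries with this comparison. The 1 gene called in CAC was lower than in NC and belongs to the clock list. NC cancels when CAC_FPL is tested against another AOM/DSS group. Against CAC 212 genes (1.41%) were called, 133 higher and 79 lower, and against CAC_F 1838 (12.2%), 1077 higher (7.14%) and 761 lower (5.05%). Against CAC_FP no gene was called by edgeR, 995 had an unadjusted p below 0.05, and DESeq2 called 21. Voom with limma's default library weights called 0 or 672, depending on the order in which the genes were listed, and 0 with weights by REML.

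Nr1d1 and Cry1 departed from CAC in opposite directions. Nr1d1 was at 125 ± 16.4 CPM in NC, 118 ± 42 in CAC, 28.2 ± 16 in CAC_F, 16.4 ± 5.74 in CAC_FP and 22.7 ± 8.74 in CAC_FPL (mean ± SD), and its log2 difference between CAC_FPL and CAC was -2.38 ± 0.32 (SE, adjusted p = 0.000627). Cry1 was at 28.3 ± 5.02 CPM in NC, 16.5 ± 2.14 in CAC, 33.4 ± 5.08 in CAC_F, 38.7 ± 4.32 in CAC_FP and 41.5 ± 2.79 in CAC_FPL, with 1.33 ± 0.12 (SE, adjusted p = 8.27e-07) against CAC, the smallest adjusted p of that contrast. For Cry1 the CAC mean lay below that of NC, and the log2 difference of CAC_FPL from NC was the smaller one, 0.55. The part of the sampling hour, which the labels do not give, was not tested. Clca1 was at 21875 ± 10479 CPM in NC, 9257 ± 6883 in CAC, 398 ± 223 in CAC_F, 629.6 ± 298 in CAC_FP and 1015 ± 854 in CAC_FPL, with -3.19 ± 0.56 (SE, adjusted p = 0.00889) against CAC. Sh2d6 differed from CAC by -3.20 ± 0.50 (SE, adjusted p = 0.00252). Gsdmc4 was higher in CAC_FPL than in CAC_F, by 3.95 ± 0.93 (SE, adjusted p = 0.0131), and was at 1095 ± 616 CPM in NC, 583 ± 326 in CAC, 4.06 ± 0.753 in CAC_F, 5.79 ± 1.45 in CAC_FP and 62.6 ± 119 in CAC_FPL. The CAC_FPL mean of Gsdmc4 includes replicate 2 at 304 CPM, and this contrast was not refitted without it. Cdkn1a was lower than in CAC_F, by -0.997 ± 0.215 (SE, adjusted p = 0.00994), and was at 149 ± 37.3 CPM in NC, 95.9 ± 15.5 in CAC, 240.3 ± 61.7 in CAC_F, 158 ± 40.2 in CAC_FP and 120.4 ± 37.7 in CAC_FPL. Atg9b was lower than in CAC_F too, by -2.06 ± 0.49 (SE, adjusted p = 0.0141). The p53 list had 10 of 26 members lower in CAC_FPL than in CAC_F and none higher, and the inflammatory list 11 of 21 lower and none higher. In the opposite direction 5 of 8 pentraxin and gasdermin genes and 9 of 24 drug metabolism genes were higher in CAC_FPL than in CAC_F. The CAC_FPL libraries differed in both lists. Pentraxin and gasdermin sums were 500, 1871, 394, 242, 250 and 177 CPM in replicates 1 to 6, against 194 to 223 CPM in CAC_F. Drug metabolism sums were 4682, 4168, 1342, 2301, 3088 and 1168 CPM, against 535 to 1662 CPM. These list counts were not refitted without single libraries.

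**Figure D5:**
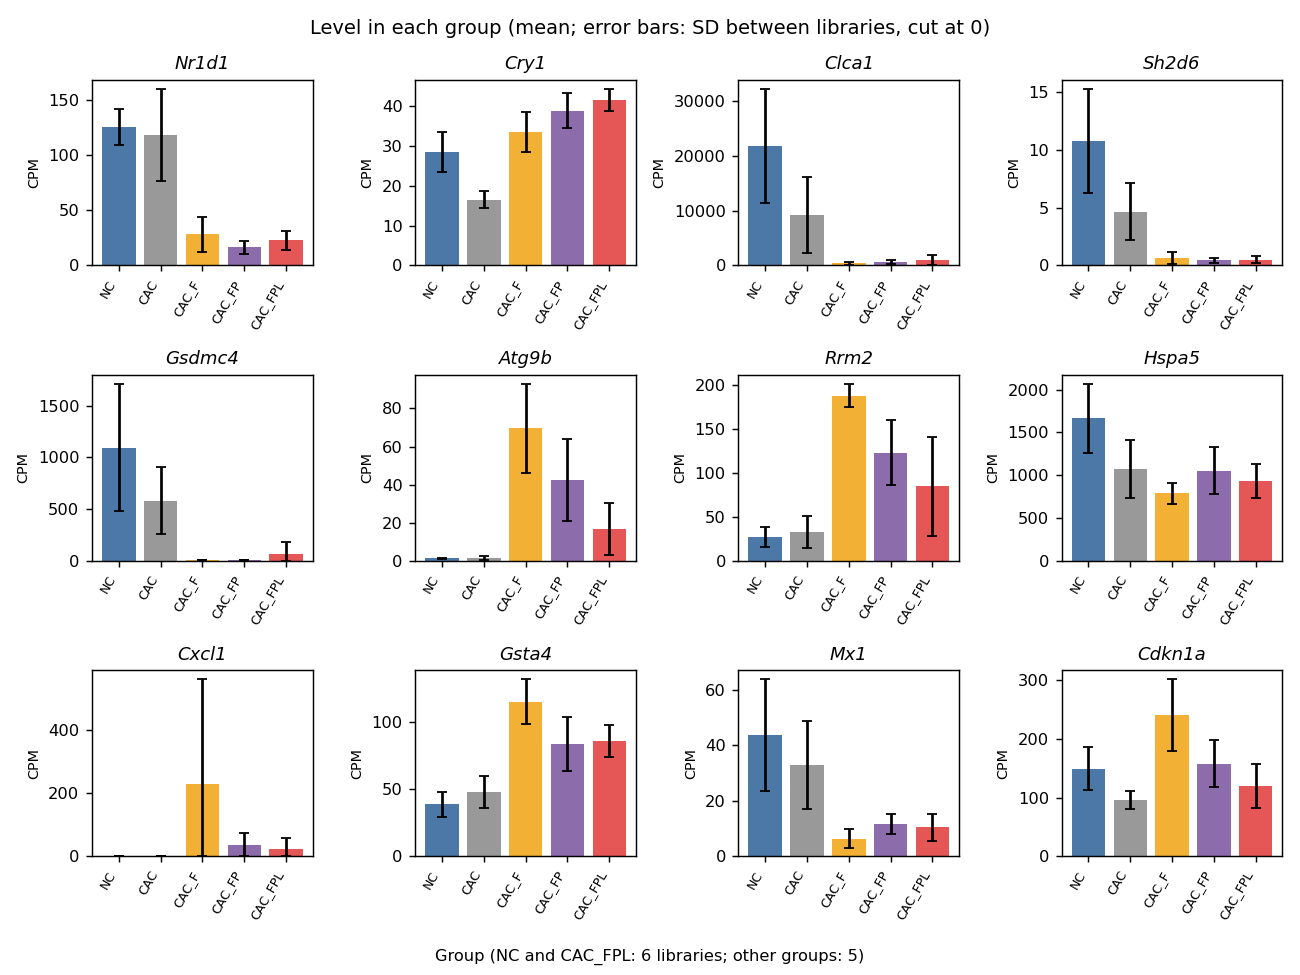
Mean CPM in each of the 5 groups for 12 genes; error bars are SD between libraries, cut at 0 (n = 6 in NC and CAC_FPL, 5 in the other groups). Nr1d1, Clca1 and Sh2d6 are low in all 3 FOLFOX groups, and Atg9b and Rrm2 are highest in CAC_F and lower in CAC_FPL.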

How the data were processed

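RNA-seq read counts and FPKM values per gene were deposited by the authors in 1 table for 27 libraries. Adapters were trimmed with cutadapt 1.9, quality was read with FastQC and reads were aligned with HISAT2, per the submitters' processing notes. The counting tool, its use of strand, the genome build and the annotation are named in no source used here. The libraries were made with dUTP, per the labels' protocols.

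Counts were scaled with TMM and tested with edgeR 4.0.16 (quasi-likelihood, R 4.3.3) in 1 fit over all 5 groups, without covariates. P-values were adjusted by Benjamini-Hochberg over the 15080 genes whose FPKM reached 1 in 5 or more libraries. A gene was called at an adjusted p under 0.05. SE is the log2 fold change divided by the root of F. CPM are per TMM-scaled library. A symbol listed more than once keeps the row with most counts. limma 3.58.1 and DESeq2 1.42.0 gave alternatives. The tests were checked on simulated counts with 1 spread per gene shared by all groups. That check does not cover the unevenness within CAC_FPL. Intervals and floors (3 counts) cover counting error only.

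Named genes were called at least 2-fold with groups that do not overlap (the 15 largest changes and 10 smallest adjusted p in each direction), up to 5 called members per list, and fixed names; fewer are printed. Names outside this rule were chosen after their values were seen. Members and gene lists were chosen with earlier results of these data known. Promoters are RefSeq sequences of GRCm38.p6, matched by symbol; the window was shortened to 250 bases after counts in a longer one were seen. Results for a few named genes are not reported here.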

Additional observations from a re-analysis of the deposited data

Results flagged for a closer look

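In 17 of 300 groups of 6 libraries (150 printed genes in NC and CAC_FPL) 1 library stood apart from the other 5 by Dixon's test on log2(CPM + 0.1). Chance flags about 1 in 20 groups.

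Of these flags 4 fell on tuft cell genes in NC replicate 2, which was the low library each time. Trpm5 was at 3.24 CPM there against 11.8 to 17.0 CPM in the other NC libraries, Gnat3 at 0.427 against 1.22 to 2.10 CPM, Rgs13 at 1.49 against 5.71 to 9.30 CPM, and Sh2d7 at 1.23 against 6.88 to 11.4 CPM. NC replicate 1 was low in both plasma cell genes named, Igha at 3550 CPM and Jchain at 1070 CPM, and it was at 0 for Tnni2.

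CAC_FPL replicate 3 was high in Hoxb13, at 289 CPM against at most 0.304 CPM, and in Cd74, at 1090 CPM against 628 to 701 CPM, and low in Gzma, at 0.749 CPM. CAC_FPL replicate 6 was high in Nampt, at 149 CPM against 83.5 to 97.2 CPM, and low in Tpsg1, at 7.21 CPM against 32.4 to 53.5 CPM. In NC, Cd68 was high in replicate 6 (20.7 CPM), Myc in replicate 5 (49.1 CPM) and Pyy in replicate 4 (28.8 CPM). Csf3 and Reg3a were each detected in 1 NC library, at 0.0803 CPM in replicate 4 and 0.139 CPM in replicate 3.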

How the results depend on the processing

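The 1068 calls of CAC_FPL against NC, 486 of them at least 2-fold, became 613 with no FPKM filter, 709 and 233 with a mean FPKM of at least 5, 1799 with DESeq2, and 622 with only both groups in the fit. With log2(FPKM + 1) the 2-fold count was 224. Leaving out 1 library at a time gave 494 to 1899 calls, and 288 to 667 of at least 2-fold. The 212 calls against CAC became 82 with no filter, 860 with DESeq2 and 871 with voom's library weights. The 1838 calls against CAC_F became 743 with no filter. Against CAC_FP 0 became 21 with DESeq2. The other settings chosen in advance kept these counts within 1.5 times, apart from the block below. The cause of the moves was not tested.

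The default voom weights depended on the order of the genes. Listed by symbol, reversed, or by identifier, they gave 1580, 1575 and 1576 calls against NC, 871, 810 and 934 against CAC, 2497, 2765 and 3457 against CAC_F, and 0, 0 and 672 against CAC_FP. Weights by REML, chosen after these counts were seen, gave 1685, 810, 2146 and 0 in each order.

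With the replicate number as a block 316 genes were called, 177 at least 2-fold. Same-numbered libraries correlated at 0.39, 0.12, -0.26, -0.03, 0.03 and 0.19 in their deviations, values of mixed sign. Only CAC_FPL replicate 6 correlated best with the NC library of its own number. Whether the numbers pair libraries was not tested. Of the genes printed, 135 were called, 48 under every alternative, and 87 lost the call under at least 1. None of these 135 changed sign. Of the 15 genes printed and not called, 4 did: Hoxb13 (4.88, and -3.61 without CAC_FPL replicate 3), Muc2 (-0.71 to 0.11), Nmnat1 (-0.10 to 0.08) and Epcam (-0.14 to 0.18). Depth limits the genes with 0 counts in NC, whose fitted folds depend on the prior count.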
